A study of Mus musculus with 12 samples.

Results

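Hox genes encode the homeodomain transcription factors that give cells their position along the body axis and along the limb. They were taken as every gene symbol made of Hox, a cluster letter from a to d and a paralog number, which gave 39 of the 25117 symbols measured. The HoxA cluster had 11 members, HoxB 10, HoxC 9 and HoxD 9. Polyadenylated RNA had been sequenced from mouse embryonic fibroblasts, connective tissue cells grown from the embryo, in 12 libraries. Values are TPM, which gives each transcript's share of a library per unit of length and hides the depth of sequencing.

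All cells carried Rbbp5 flox/flox and Rosa26 CRE (+/+), that is, a floxed targeted gene and Cre recombinase at the Rosa26 locus. The groups labelled RBBP5 KO had received tamoxifen for 7 days, and those labelled wildtype had received none. Effects of tamoxifen and of Cre therefore cannot be told apart from those of RBBP5 loss. The 4 groups were KO in EBSS, KO in full medium, wildtype in EBSS and wildtype in full medium, with 3 libraries each. Full medium was DMEM with serum, and EBSS, Earle's balanced salt solution, lacks serum and amino acids and was given for 16 hours. The labels number the replicates but do not say that they came from separate embryos or cultures, so p-values measure the spread between these libraries, which may be technical.

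In mammals the Hox genes lie in 4 clusters. Their order on the chromosome follows their order of activity along the body, with low paralog numbers used near the head and high ones near the tail and in the outer limb. Fibroblasts keep much of this pattern in culture, and it marks the place in the body they came from. MLL1 and MLL2, methyltransferases for histone H3 lysine 4, are known to keep Hox genes active against Polycomb complexes, and RBBP5 is a core subunit of these and the related SET1 complexes.

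The labels were first checked against Rbbp5. It stood at 7.47, 9.34 and 8.31 TPM in KO libraries in full medium, against 26.2, 25.7 and 26.2 TPM in wildtype libraries in full medium. The order was the opposite in EBSS, where labelled KO had 31.9, 24.6 and 23.0 TPM of Rbbp5 and labelled wildtype had 12.4, 14.0 and 11.8 TPM. Both EBSS groups are therefore called by their labels, and each direction drawn from them rests on labels that Rbbp5 goes against. The 3 libraries labelled wildtype, EBSS also stood apart: their share of ribosomal protein mRNA was 30.9% to 33.4%, where the other 9 libraries had 14.3% to 18.1%. The ribosomal RNA precursor Rn45s was at 1454 to 2105 TPM there, against 68.3 to 272 TPM elsewhere, while the median tested gene had 10.1 to 10.5 TPM there and 17.5 to 23.0 TPM elsewhere. Replicate 3 of that group listed 1122 tested genes at 0, against 12 to 229 in the other 11 libraries. Of 14 fibroblast markers, 9 were above 1 TPM in every library. The 14 summed to 6096 to 9287 TPM in labelled KO, EBSS, 6580 to 7247 TPM in KO, full medium, 4847 to 5744 TPM in labelled wildtype, EBSS and 9215 to 9481 TPM in wildtype, full medium. The matrix genes Col3a1 and Dcn were lower in labelled wildtype, EBSS (22.5 to 23.8 and 0.299 to 1.97 TPM) and KO, full medium (33.4 to 53.5 and 21.9 to 25.2 TPM) than in wildtype, full medium (587 to 620.0 and 156 to 157 TPM). The list was mixed, as Vim was higher in KO, full medium (2996 to 3235 TPM) than in wildtype, full medium (2789 to 2884 TPM). S100a4 overlapped between the groups in full medium, at 1859 to 2093 TPM in KO and 1792 to 2032 TPM in wildtype. Of the 33 markers of 7 other cell types, 16 were below 1 TPM in every library, among them Epcam, Cdh5, Ptprc, Sox10, Myod1 and Pou5f1. Others were not: Krt19 reached 271 TPM, Nes 163 TPM, Cd68 62.0 TPM and Sox9 18.8 TPM. The 6 macrophage markers summed to 17.3 to 21.0 TPM in labelled KO, EBSS, 60.8 to 65.4 TPM in KO, full medium, 17.8 to 77.0 TPM in labelled wildtype, EBSS and 17.0 to 17.3 TPM in wildtype, full medium. The highest of these sums was in labelled wildtype, EBSS replicate 3, with the macrophage genes Lyz2 at 48.4 TPM and Adgre1 at 3.38 TPM. The same library had the endothelial gene Pecam1 at 4.48 TPM and the pluripotency gene Nanog at 2.72 TPM. In KO, full medium most of the macrophage sum was Cd68, at 56.4 to 62.0 TPM. Lyz2 was at 2.15 to 5.19 TPM there, against 0.28 to 0.36 TPM in wildtype, full medium. Ptprc, Adgre1, Csf1r and Itgam were below 1 TPM in every KO library in full medium. Against wildtype, full medium, Ptprc was at 0.18 to 0.38 and 0.013 to 0.028 TPM, and Itgam at 0.42 to 0.50 and 0 to 0.036 TPM. Adgre1 was at 0.18 to 0.21 and 0 TPM, while Csf1r overlapped at 0.56 to 0.79 and 0.44 to 0.615 TPM. The epithelial markers summed to 100.3 to 146 TPM in labelled KO, EBSS, 248 to 284 TPM in KO, full medium, 213.5 to 229.8 TPM in labelled wildtype, EBSS and 159.5 to 174 TPM in wildtype, full medium. The neural markers summed to 96.4 to 181.7 TPM in labelled KO, EBSS, 71.6 to 80.0 TPM in KO, full medium, 41.5 to 58.4 TPM in labelled wildtype, EBSS and 147 to 159.8 TPM in wildtype, full medium. Krt19 made up most of each epithelial sum, with Epcam and Cdh1 below 1 TPM in every library. Nes and Tubb3 made up most of each neural sum, with Sox10, Neurod1 and Olig2 below 1 TPM in every library. The part of these markers in the results below was not tested. In bulk RNA, fewer cells with a transcript and less transcript per cell cannot be told apart.

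The fibroblasts used HoxA and HoxD, and HoxB and HoxC were close to silent. Of the 19 HoxB and HoxC genes, 5 were listed at 0 in all 12 libraries and 18 never passed 0.25 TPM. The one exception was Hoxc8, a thoracic-level gene, at 2.50 TPM in replicate 3 of labelled wildtype, EBSS alone, the library that also listed the most genes at 0. Without that library the highest HoxB or HoxC value was 0.219 TPM, for Hoxb13. On GRCm38 the silent clusters lie on chromosome 11 from 96194316 to 96368256 and on chromosome 15 from 102921103 to 103036852.

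HoxA, on chromosome 6, and HoxD, on chromosome 2 from 74668310 to 74765142, were used mostly at their high-number ends. Hoxd13, which patterns the digits, was the most abundant Hox transcript in every group, averaging 136.5 ± 8.51 TPM in labelled KO, EBSS, 179.9 ± 19.6 TPM in KO, full medium, 92.7 ± 13.3 TPM in labelled wildtype, EBSS and 145 ± 6.35 TPM in wildtype, full medium (SD, n = 3 each). Hoxa10 and Hoxa11, which pattern the limb segment nearest the trunk and the middle segment, followed in wildtype cells in full medium, at 41.5 ± 0.635 and 45.3 ± 1.55 TPM (mean ± SD, n = 3). Hoxa3, Hoxa4 and Hoxd4, of the head and neck region, never exceeded 2.78 TPM. A gene was tested if it had at least 1 TPM in at least 3 libraries, which 10 HoxA and 7 HoxD genes and no HoxB or HoxC gene met. The other 22 Hox genes were not tested, among them Hoxd1, listed at 0 throughout, Hoxd3, at most 0.296 TPM, and Hoxa2, a gene of the second branchial arch, at 0.308 to 1.00 TPM. The filter keeps a gene through any group where it is high, so the 17 tested genes are not all members.

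**Figure D1:**
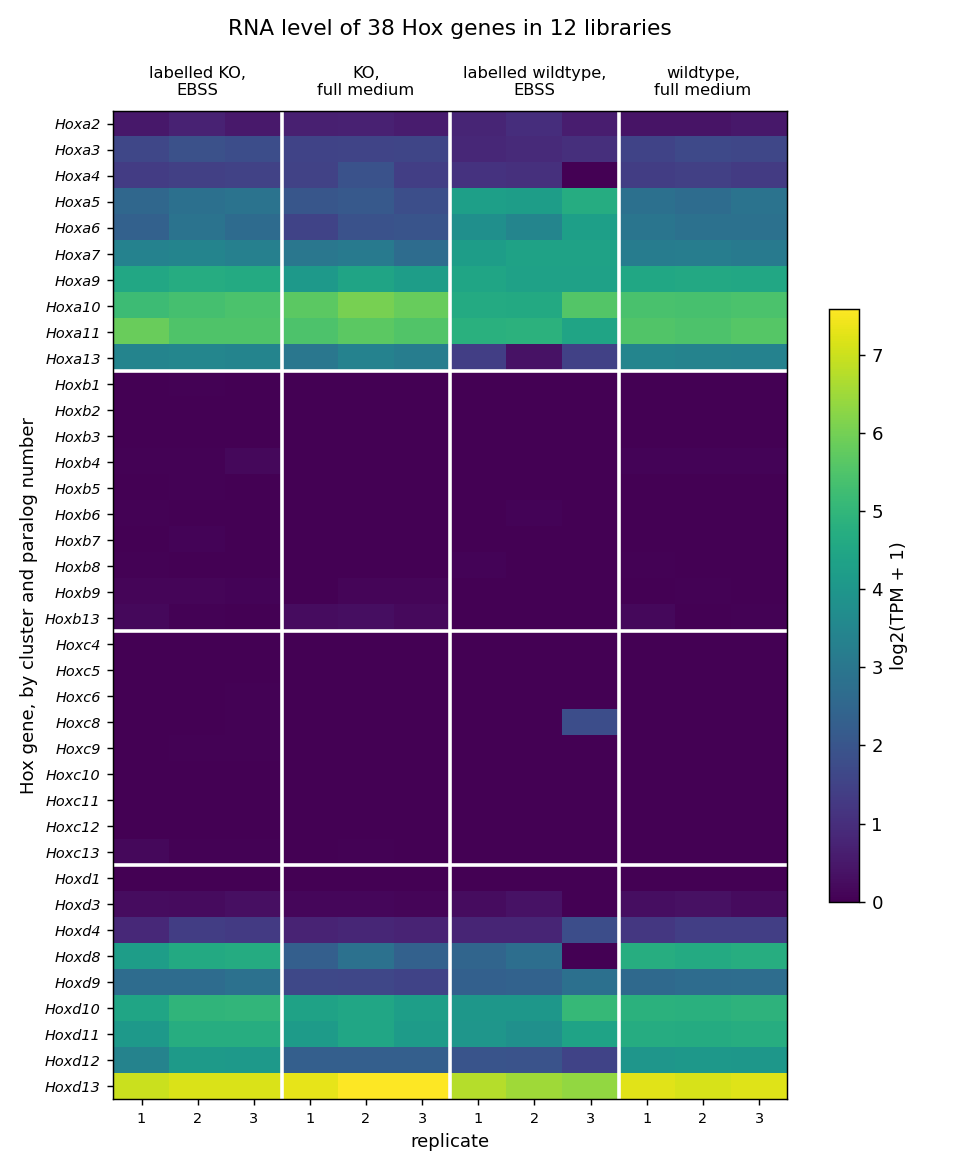
Level of 38 Hox genes in each of the 12 libraries, as log2(TPM + 1) in colour, with genes down the page by cluster and paralog number and libraries across by group. HoxB and HoxC are dark throughout except for Hoxc8 in labelled wildtype, EBSS replicate 3 (2.50 TPM), and the brightest row is Hoxd13.

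KO cells in full medium had less RNA of 6 of the 17 tested Hox genes than wildtype cells in full medium, namely Hoxd8, Hoxd9, Hoxd12, Hoxa5, Hoxa6 and Hoxa9, and more of 1, Hoxd13. The other 10 did not pass the test. The tests were limma's on log2(TPM + 1), with all 12 libraries in one fit and p-values adjusted by the Benjamini-Hochberg method over 12653 genes, at a threshold of 0.05. Of all genes tested, 35.8% were called lower and 20.1% higher in this comparison, so the Hox share was no larger than that of all genes. The median change was -0.30 over the 17 Hox genes and -0.17 over all genes. Scaling moved the split: it was 2 higher and 5 lower with median-of-ratios scaling, and 3 higher and 4 lower with quantile normalization. Log2 changes of TPM + 1 understate the change of low genes.

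Hoxd8, a trunk-level gene of HoxD (chromosome 2 from 74704615 to 74707933), had the largest fall. It stood at 3.91, 6.16 and 4.10 TPM in KO, full medium, against 25.6, 24.2 and 25.7 TPM in wildtype, full medium. The 2 groups were far apart, with every KO library far below the lowest wildtype library. The log2 change was -2.22 (SE 0.55, limma adjusted p = 0.0051). The wide error came from the shared spread with labelled wildtype, EBSS, where replicate 3 listed the gene at 0: the SE was 0.16 without that library (adjusted p = 7.4e-07), and a pseudocount of 0.1 ended the call (adjusted p = 0.11).

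Hoxd12, which acts with Hoxd13 in the outer limb (from 74675013 to 74677705), stood at 3.90, 3.95 and 3.94 TPM in KO, full medium, against 14.8, 15.6 and 15.2 TPM in wildtype, full medium. Its 3 KO values were nearly equal and all far below the wildtype values. It fell by 1.72 (SE 0.19, limma adjusted p = 2.2e-05). Hoxd9, which has roles in the limb and the hind trunk (from 74697727 to 74700208), stood at 2.13, 2.07 and 1.89 TPM in KO, full medium, against 5.03, 5.41 and 5.51 TPM in wildtype, full medium. These groups did not overlap either, and the change was -1.06 (SE 0.14, limma adjusted p = 7.8e-05). Hoxd12, Hoxd9 and Hoxa6 passed the test under each alternative setting that kept them and with each library left out in turn.

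Within HoxA the called falls were those of Hoxa5 and Hoxa6 and a smaller one of Hoxa9, while Hoxa7, which lies between Hoxa6 and Hoxa9, did not pass. Hoxa5, needed for lung and neck development (chromosome 6 from 52201754 to 52204587), stood at 3.09, 3.37 and 2.56 TPM in KO, full medium, against 5.92, 5.47 and 6.46 TPM in wildtype, full medium. Hoxa6, of the thoracic region (from 52206288 to 52208722), stood at 1.88, 2.77 and 2.91 TPM in KO, full medium, against 6.77, 6.15 and 6.19 TPM in wildtype, full medium. All KO libraries were below all wildtype libraries for both genes. Hoxa5 fell by 0.80 (SE 0.16, limma adjusted p = 0.0013) and Hoxa6 by 1.08 (SE 0.22, limma adjusted p = 0.0014). Quantile normalization ended the call for Hoxa5 (-0.30, adjusted p = 0.13).

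Hoxa9, a regulator of blood progenitors and a known MLL target in leukaemia, had the smallest fall among the called genes, at 16.1, 20.6 and 17.6 TPM in KO, full medium, against 21.9, 22.8 and 22.5 TPM in wildtype, full medium (-0.30, SE 0.10, limma adjusted p = 0.028). Hoxd13 stood at 157, 192 and 191 TPM in KO, full medium, against 150.4, 138 and 147 TPM in wildtype, full medium. Its lowest KO library was only just above the highest wildtype library, and the change was 0.30 (SE 0.11, limma adjusted p = 0.037). Both calls were lost without any one of 5 libraries: the 3 of wildtype, full medium for both genes, with KO replicates 1 and 3 for Hoxa9 and KO replicates 2 and 3 for Hoxd13. The adjusted p was then 0.061 to 0.094 for Hoxa9 and 0.061 to 0.12 for Hoxd13. Scaling ended the Hoxa9 call (-0.12, adjusted p = 0.34 with median-of-ratios scaling), and the replicate block ended that of Hoxd13 (adjusted p = 0.062).

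The other abundant members did not pass. Hoxa10 stood at 50.1, 64.4 and 55.9 TPM in KO, full medium, against 41.5, 40.8 and 42.04 TPM in wildtype, full medium (0.44, adjusted p = 0.097). Hoxa11 stood at 43.7, 50.6 and 44.8 TPM in KO, full medium, against 45.4, 43.7 and 46.8 TPM in wildtype, full medium, which overlap. Hoxa7, of the thoracic region, stood at 7.00, 7.60 and 5.37 TPM in KO, full medium, against 8.15, 8.21 and 7.66 TPM in wildtype, full medium (-0.25, adjusted p = 0.12). Hoxa10 was above, and Hoxa7 below, the wildtype range in all 3 KO libraries without passing the test. Hoxa13, a partner of Hoxd13 in the hand and foot, stood at 7.11, 9.38 and 8.29 TPM in KO, full medium, against 9.85, 9.43 and 9.22 TPM in wildtype, full medium. Hoxd10, of the hind limb and its nerves, stood at 19.9, 21.7 and 18.1 TPM in KO, full medium, against 27.8, 27.0 and 28.8 TPM in wildtype, full medium. Hoxd11, which patterns the forearm with Hoxa11, stood at 16.9, 21.5 and 17.1 TPM in KO, full medium, against 24.8, 24.6 and 25.6 TPM in wildtype, full medium.

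Hoxd10 and Hoxd11 were thus below the wildtype range in every KO library, with changes of -0.47 and -0.42 (limma adjusted p = 0.14 and 0.083). Counting groups that do not overlap, 3 of the 17 genes were higher in KO and 10 lower, where 30.5% and 49.7% of all genes tested were so. With only the 6 libraries of the comparison in the fit, or without replicate 3 of labelled wildtype, EBSS, the calls came to 3 higher and 9 lower. Those added included Hoxa10 as higher and Hoxd4, Hoxd10 and Hoxd11 as lower. Calls over all 12653 genes tested rose under these settings too, from 7078 to 9679 and 8619 in that order. Hoxd4, a gene of the hindbrain and neck, averaged 0.706 TPM in KO, full medium and 1.57 TPM in wildtype, full medium. It was below 1 TPM in every KO library in full medium, so it met the filter only through other groups. Its place among the genes lower in KO is therefore no separate support. Hoxa3, a gene of the neck and thymus, and Hoxa4, of the neck vertebrae, had changes of -0.05 and 0.23 and did not pass.

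**Figure D2:**
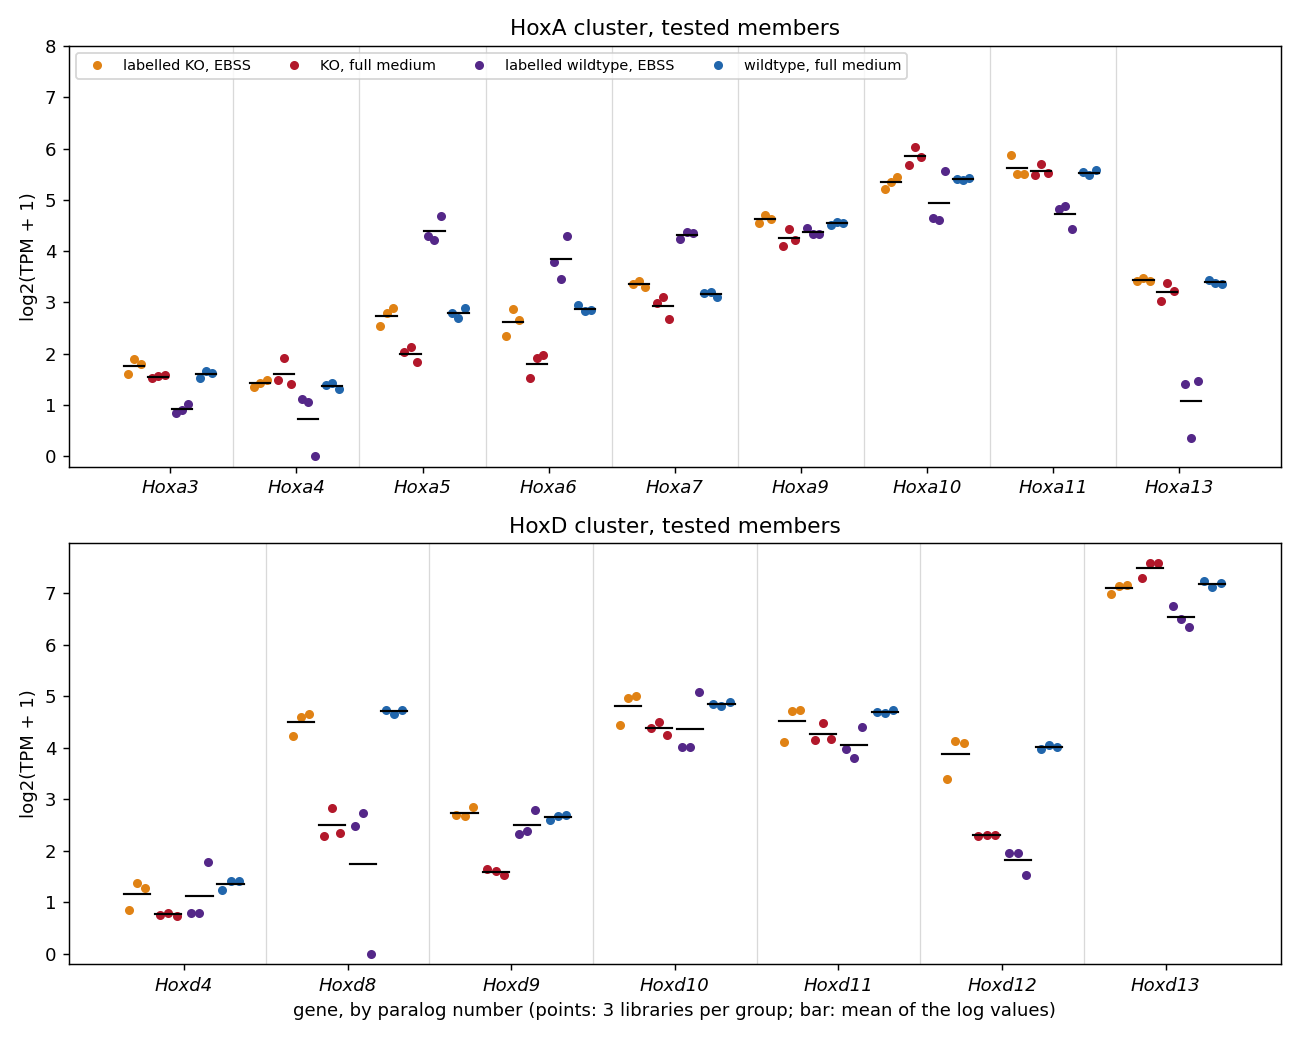
Level of 16 tested Hox genes, as log2(TPM + 1), in each library (points) with the mean of the log values of a group (bars), for labelled KO, EBSS, KO, full medium, labelled wildtype, EBSS and wildtype, full medium from left to right. KO libraries in full medium lie below wildtype libraries for 10 genes, among them Hoxd8, Hoxd9, Hoxd12, Hoxa5 and Hoxa6, as they do for 49.7% of all genes tested. Labelled wildtype, EBSS lies above all other groups for Hoxa5, Hoxa6 and Hoxa7, which was not counted over all genes.

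The promoters of Hoxd8 and Hoxd13, the called members with the largest fall and the largest rise in full medium, are given with those of their paralogs Hoxb8 and Hoxa13. They are RefSeq windows on GRCm38.p6 from 250 bases before to 50 after the annotated start, written along the gene's strand, with each CG dinucleotide in capitals. Hoxd8 is at chr2:74704365-74704664 (plus strand), Hoxb8 at chr11:96281655-96281954 (plus), Hoxd13 at chr2:74667975-74668274 (plus) and Hoxa13 at chr6:52260831-52261130 (minus).
Hoxd8: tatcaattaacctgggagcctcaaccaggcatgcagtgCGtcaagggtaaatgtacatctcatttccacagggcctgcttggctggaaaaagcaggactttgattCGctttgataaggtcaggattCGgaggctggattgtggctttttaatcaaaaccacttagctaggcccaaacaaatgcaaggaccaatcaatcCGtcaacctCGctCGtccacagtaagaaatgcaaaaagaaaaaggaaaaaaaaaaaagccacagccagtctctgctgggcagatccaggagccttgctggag
Hoxb8: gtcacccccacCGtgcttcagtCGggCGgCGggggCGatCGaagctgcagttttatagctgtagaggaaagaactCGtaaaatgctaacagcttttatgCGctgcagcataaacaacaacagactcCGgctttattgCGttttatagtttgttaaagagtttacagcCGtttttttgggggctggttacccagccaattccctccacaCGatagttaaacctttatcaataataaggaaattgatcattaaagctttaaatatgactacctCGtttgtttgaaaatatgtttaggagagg
Hoxd13: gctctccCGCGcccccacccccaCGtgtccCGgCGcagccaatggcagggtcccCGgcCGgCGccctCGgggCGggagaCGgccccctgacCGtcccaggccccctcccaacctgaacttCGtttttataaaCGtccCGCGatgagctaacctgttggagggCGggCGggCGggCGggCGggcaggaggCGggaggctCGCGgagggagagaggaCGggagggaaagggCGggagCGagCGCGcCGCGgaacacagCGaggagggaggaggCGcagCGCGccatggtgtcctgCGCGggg
Hoxa13: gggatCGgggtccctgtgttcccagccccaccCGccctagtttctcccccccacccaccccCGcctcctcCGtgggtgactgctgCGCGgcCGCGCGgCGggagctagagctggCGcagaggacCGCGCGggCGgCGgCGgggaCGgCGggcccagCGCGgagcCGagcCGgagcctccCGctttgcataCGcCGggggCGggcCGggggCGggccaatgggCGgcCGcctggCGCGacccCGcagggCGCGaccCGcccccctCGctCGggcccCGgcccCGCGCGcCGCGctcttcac

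The Hoxd8 window held 6 CG and the Hoxd13 window 37, and their paralogs held 13 in Hoxb8, which was silent here, and 45 in Hoxa13. Hoxd8 was below, and Hoxd13 and Hoxa13 far above, the median of 7 CG over all 32851 promoter windows of the table (quartiles 3 and 20). Over 24 windows of the 22 Hox genes that matched, the median was 14.5 CG, with a range of 4 to 45. The letters TATAAA, on either strand, were in 4 of the 24 Hox windows and in 13.6% of all windows. The letters CCAAT, on either strand and searched on their own, so that a base could count for both motifs, were in 15 of the 24 (62.5%) and in 37.4% of all windows. Because several windows belong to one gene and neighbours share a cluster, these shares are descriptions with no test.

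In labelled wildtype, EBSS against wildtype, full medium, 3 neighbouring genes of HoxA rose, Hoxa5, Hoxa6 and Hoxa7, while most of the transcriptome was called lower. Another 8 of the 17 tested Hox genes were lower, Hoxa3, Hoxa4, Hoxa11, Hoxa13, Hoxd8, Hoxd11, Hoxd12 and Hoxd13. Of all genes tested, 9.25% were called higher and 71.8% lower, and the median change was -0.94 over all genes and -0.48 over the 17 Hox genes. The split depended on scaling, at 7 higher and 3 lower with median-of-ratios scaling, 5 higher and 3 lower with quantile normalization, and 3 higher and 5 lower with ribosomal protein genes left out. Without replicate 3 of labelled wildtype, EBSS it was 3 higher and 11 lower. Groups that did not overlap were the rule in this comparison, with 10.5% of all genes tested entirely above and 73.6% entirely below. The calls that held under all of the settings were the 3 rises and the falls of Hoxa13, Hoxd8 and Hoxd12.

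Hoxa5 stood at 18.7, 17.6 and 24.8 TPM in labelled wildtype, EBSS, against 5.92, 5.47 and 6.46 TPM in wildtype, full medium. Hoxa6 stood at 12.8, 10.0 and 18.6 TPM in labelled wildtype, EBSS, against 6.77, 6.15 and 6.19 TPM in wildtype, full medium. Hoxa7 (chromosome 6 from 52214491 to 52221854) stood at 17.9, 19.6 and 19.6 TPM in labelled wildtype, EBSS, against 8.15, 8.21 and 7.66 TPM in wildtype, full medium. For each of the 3 genes, all libraries of labelled wildtype, EBSS were above all other 9 libraries. How many of all genes tested were so was not counted. Against wildtype, full medium alone it was 10.5%. The changes were 1.61 for Hoxa5 (SE 0.16, limma adjusted p = 2.5e-06), 0.97 for Hoxa6 (SE 0.22, limma adjusted p = 0.0015) and 1.15 for Hoxa7 (SE 0.13, limma adjusted p = 5.6e-06). Relative to the median of all genes they were 2.54, 1.90 and 2.09. Without replicate 3 they were 1.46, 0.74 and 1.13, with adjusted p of 0.0026 at most.

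The promoters of these 3 neighbours, chosen for display after their values were seen, are shown in the same form. They are at chr6:52204538-52204837 for Hoxa5, chr6:52208623-52208922 for Hoxa6 and chr6:52218524-52218823 for Hoxa7, all on the minus strand.
Hoxa5: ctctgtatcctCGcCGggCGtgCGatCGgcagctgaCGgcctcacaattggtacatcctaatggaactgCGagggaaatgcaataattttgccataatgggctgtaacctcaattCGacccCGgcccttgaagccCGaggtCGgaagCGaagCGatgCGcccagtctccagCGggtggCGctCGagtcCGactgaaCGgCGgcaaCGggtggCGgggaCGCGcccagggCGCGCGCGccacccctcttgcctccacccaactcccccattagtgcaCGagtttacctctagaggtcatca
Hoxa6: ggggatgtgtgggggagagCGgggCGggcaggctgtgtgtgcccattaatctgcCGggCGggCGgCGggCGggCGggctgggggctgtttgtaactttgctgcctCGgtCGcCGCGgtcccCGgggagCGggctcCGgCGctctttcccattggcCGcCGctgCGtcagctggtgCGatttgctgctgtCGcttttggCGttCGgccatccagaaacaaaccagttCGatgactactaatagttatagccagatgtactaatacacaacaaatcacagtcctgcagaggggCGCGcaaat
Hoxa7: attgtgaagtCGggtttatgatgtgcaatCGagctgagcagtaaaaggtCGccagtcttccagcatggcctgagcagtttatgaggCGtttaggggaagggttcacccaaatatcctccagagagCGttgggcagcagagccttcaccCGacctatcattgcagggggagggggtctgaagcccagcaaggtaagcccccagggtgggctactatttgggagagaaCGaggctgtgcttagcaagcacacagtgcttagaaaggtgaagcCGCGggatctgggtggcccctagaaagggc

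They held 29, 26 and 9 CG in that order, so these 3 windows did not share a CG content. The Hoxa7 window lies inside the annotated Hoxa7 gene, which reaches 52221854 on the minus strand. CG at that outermost start of Hoxa7 were not counted.

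At the other end of the cluster, Hoxa13 (from 52257694 to 52260880) stood at 1.68, 0.291 and 1.76 TPM in labelled wildtype, EBSS, against 9.85, 9.43 and 9.22 TPM in wildtype, full medium. The change was -2.31 (SE 0.25, limma adjusted p = 4.6e-06). Hoxd8 stood at 4.58, 5.67 and 0 TPM in labelled wildtype, EBSS, and fell by 2.97 (SE 0.55, limma adjusted p = 3.7e-04), or by 2.10 without replicate 3 (adjusted p = 9.0e-07). Hoxd12 stood at 2.91, 2.87 and 1.90 TPM in labelled wildtype, EBSS, and fell by 2.20 (SE 0.19, limma adjusted p = 9.5e-07). For these 3 genes, too, labelled wildtype, EBSS did not overlap wildtype, full medium, and with median-of-ratios scaling the changes were -1.64, -2.26 and -1.38 (limma adjusted p = 6.1e-04, 0.013 and 2.0e-04).

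The remaining members of labelled wildtype, EBSS depended on scaling or on replicate 3. Hoxa11 stood at 27.4, 28.6 and 20.7 TPM there, Hoxd13 at 107, 90.3 and 80.9 TPM and Hoxd11 at 14.7, 13 and 20.1 TPM. Each was below every wildtype library in full medium as deposited, with changes of -0.81, -0.65 and -0.64, and each was above 0 with median-of-ratios scaling (0.17, 0.35 and 0.32). Hoxa9 stood at 20.9, 19.3 and 19.3 TPM and Hoxd9 at 4.004, 4.21 and 5.95 TPM in labelled wildtype, EBSS. Neither passed as deposited (-0.17 and -0.16), and both were higher with that scaling (0.80, adjusted p = 3.8e-05, and 0.70, adjusted p = 0.0013). Hoxa10 stood at 24.1, 23.5 and 46.1 TPM and Hoxd10 at 15.2, 15.2 and 32.8 TPM, where replicate 3 stood at about the wildtype, full medium level or above it and replicates 1 and 2 far below. Their changes were -0.47 and -0.48 with all libraries, which did not pass, and -0.78 and -0.83 without replicate 3, which did (limma adjusted p = 4.0e-05 and 3.6e-04). Hoxd9 and Hoxd4 also passed without replicate 3 (-0.31 and -0.57, limma adjusted p = 0.012 and 0.0036). Hoxd4 was below the filter level of 1 TPM in replicates 1 and 2, so it met the filter through other libraries. Hoxa3 and Hoxa4 fell by 0.68 and 0.65 (limma adjusted p = 2.1e-04 and 0.036) but not with median-of-ratios scaling (adjusted p = 0.45 and 0.65), and the Hoxa4 call was also lost without replicate 3, where the gene is listed at 0 (adjusted p = 0.079). The Hoxa4 call was lost without replicate 1, 2 or 3 of wildtype, full medium as well (adjusted p = 0.063 to 0.084).

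**Figure D3:**
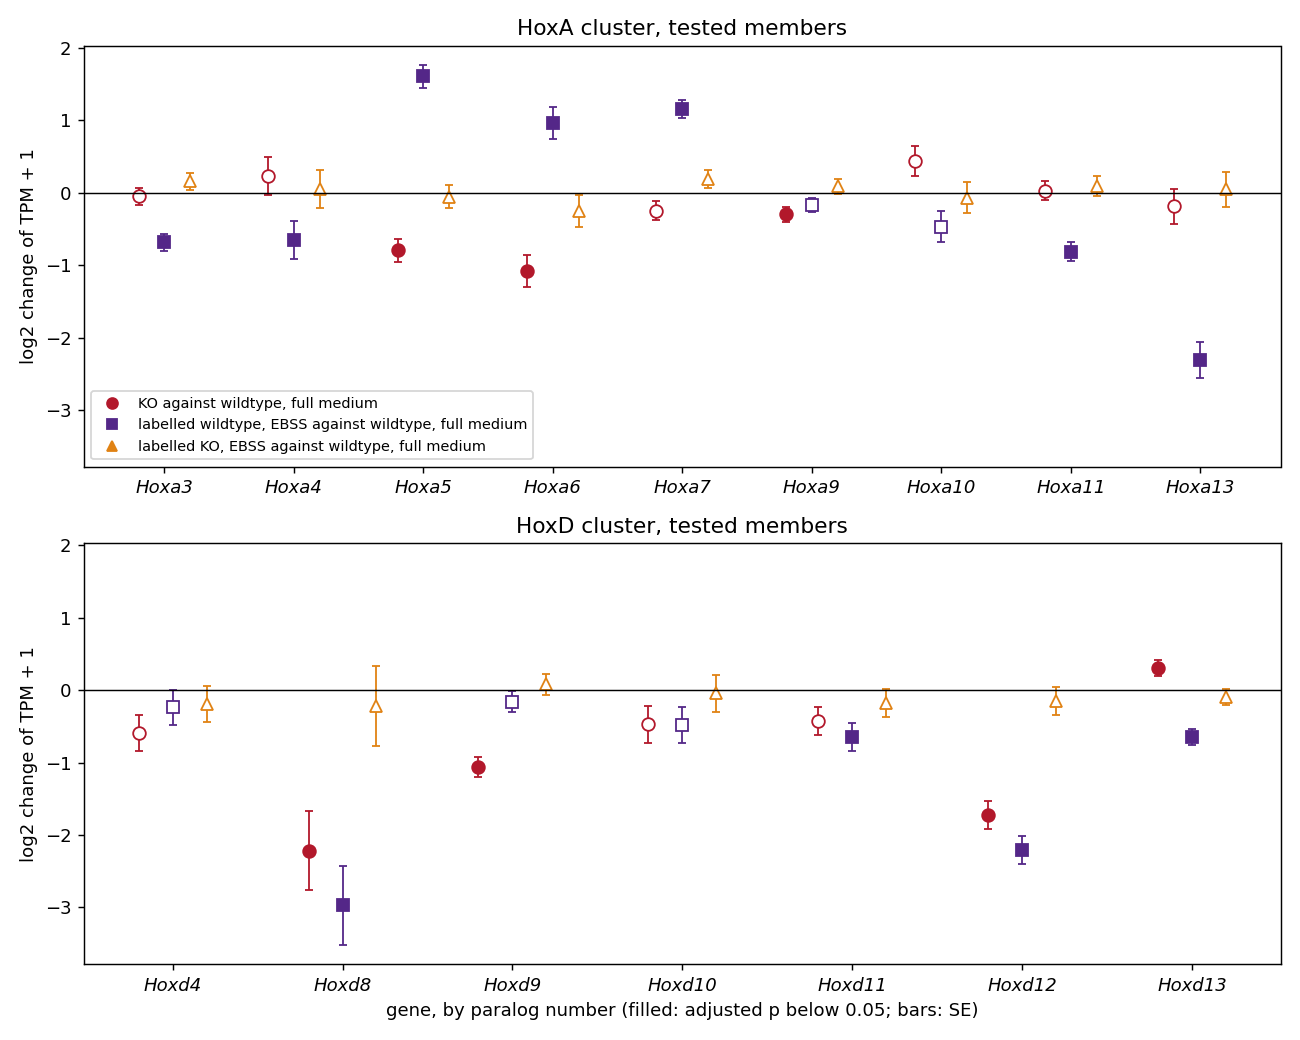
Log2 change of TPM + 1 against wildtype, full medium for KO, full medium (circles), labelled wildtype, EBSS (squares) and labelled KO, EBSS (triangles), with standard errors, for 16 tested genes of HoxA (top) and HoxD (bottom) by paralog number; filled symbols have an adjusted p below 0.05. The filled squares of Hoxa5, Hoxa6 and Hoxa7 stand above 0 (0.97 to 1.61), Hoxd13 in KO, full medium is the one other filled symbol above 0, and no triangle is filled; the 3 comparisons share the wildtype, full medium libraries.

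Between labelled KO, EBSS and wildtype, full medium no Hox gene was called. None of the 17 tested genes passed limma's test, with 0 calls also at an unadjusted p below 0.05 and under every alternative setting, and 0.134% of all genes tested were called. The changes ran from -0.25 for Hoxa6 to 0.20 for Hoxa7, and the lowest adjusted p was 0.61. Standard errors were 0.10 to 0.55, so small differences were not detectable. Hoxd8 stood at 17.8, 23.2 and 24.2 TPM in labelled KO, EBSS, Hoxd12 at 9.60, 16.5 and 16.0 TPM and Hoxd9 at 5.46, 5.44 and 6.18 TPM. Hoxd8 and Hoxd12 were lowest in replicate 1, the library least like the other 2 of its group (correlation of log values 0.973 and 0.972, against 0.996 between replicates 2 and 3).

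Against KO, full medium, labelled KO, EBSS was higher for 7 of the 17 tested genes, Hoxa5, Hoxa6, Hoxa7, Hoxa9, Hoxd8, Hoxd9 and Hoxd12, and lower for 1, Hoxd13. Of all genes tested, 33.3% were higher and 20.9% lower. Hoxa5 stood at 4.83, 5.92 and 6.42 TPM, Hoxa6 at 4.09, 6.37 and 5.28 TPM and Hoxa7 at 9.33, 9.71 and 8.90 TPM in labelled KO, EBSS, all above every KO library in full medium, as 41.5% of all genes tested were. Hoxd8 was higher by 2.00 (SE 0.55, limma adjusted p = 0.0096), Hoxd12 by 1.57 (SE 0.19, limma adjusted p = 4.3e-05) and Hoxd9 by 1.14 (SE 0.14, limma adjusted p = 4.7e-05). Hoxd13 stood at 127, 141 and 142 TPM in labelled KO, EBSS, and fell by 0.39 (SE 0.11, limma adjusted p = 0.011). The split was 5 higher and 2 lower with median-of-ratios scaling and 3 higher and 2 lower with quantile normalization. Without replicate 3 of labelled wildtype, EBSS it was 9 higher and 2 lower. Of all 12653 genes tested, 8419 were called without that library, against 6861 with all libraries. The Hoxa7 call was lost without KO, full medium replicate 3 (adjusted p = 0.0502). This comparison and that of KO with wildtype in full medium share the KO, full medium libraries.

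The other abundant members of labelled KO, EBSS were near the wildtype, full medium level. Hoxa9 stood there at 22.5, 25.1 and 23.9 TPM and Hoxa13 at 9.67, 10.2 and 9.73 TPM. Hoxa10 stood at 36.1, 40.0 and 42.8 TPM and Hoxa11 at 57.5, 44.2 and 44.1 TPM in that group. Hoxd10 stood at 20.9, 30.3 and 31.1 TPM and Hoxd11 at 16.2, 25.4 and 25.8 TPM, both lowest in replicate 1.

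The difference between the KO and wildtype labels was tested for a change between the media. KO minus wildtype had a higher value in EBSS than in full medium for 9 of the 17 tested genes and a lower one for 2, Hoxa5 and Hoxa7, by limma's interaction test, where 64.2% and 12.5% of all genes tested were so. The split was 3 and 6 with median-of-ratios scaling, and 10 and 3 without replicate 3 of labelled wildtype, EBSS. These directions rest on the EBSS labels, which Rbbp5 goes against. With those labels exchanged the value would be 2.46 for Hoxa5, in place of -0.86, and 1.203 for Hoxa7, in place of -0.71. It would be -0.54 for Hoxd8, in place of 4.97, -0.34 for Hoxd12, in place of 3.78, and -2.17 for Hoxa13, in place of 2.54, and these exchanged values, added after seeing the data, were not tested.

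Between the EBSS groups, labelled KO was higher than labelled wildtype for 9 of the 17 tested genes and lower for 3, Hoxa5, Hoxa6 and Hoxa7, where 71.9% and 8.58% of all genes tested were so. The largest differences were Hoxd8 at 2.76 (SE 0.55, limma adjusted p = 6.6e-04), Hoxa13 at 2.36 (SE 0.25, limma adjusted p = 4.3e-06) and Hoxd12 at 2.06 (SE 0.19, limma adjusted p = 1.8e-06). Hoxa5 was at -1.66, Hoxa6 at -1.22 and Hoxa7 at -0.96, and these 6 directions held under every alternative setting tried and with each library left out. The other 6 calls did not hold under median-of-ratios scaling, where 3 genes were higher and 7 lower. Without replicate 3 of labelled wildtype, EBSS 12 were higher and 3 lower, and with the 6 libraries of the comparison alone 6 were higher and 3 lower. The Hoxa9 and Hoxd11 calls (0.25 and 0.46, adjusted p = 0.038 and 0.044) were lost without any one of 8 and 9 of the 12 libraries. For both genes these included the 3 of wildtype, full medium, KO, full medium replicate 3, labelled wildtype, EBSS replicate 2 and labelled KO, EBSS replicates 2 and 3. Labelled wildtype, EBSS replicate 3 was added for Hoxa9, and replicate 1 of that group and of KO, full medium for Hoxd11. The Hoxa4 call (0.70, adjusted p = 0.026) was lost without labelled KO, EBSS replicate 2 or 3 (adjusted p = 0.055 and 0.064).

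The groups in which Rbbp5 was low, labelled wildtype, EBSS and KO, full medium, were also set against each other, though they differ in both labels. Hoxa5, Hoxa6, Hoxa7 and Hoxd9 were higher in labelled wildtype, EBSS and Hoxa3, Hoxa4, Hoxa10, Hoxa11, Hoxa13, Hoxd12 and Hoxd13 were lower, or 4 and 7 of 17, where 11.6% and 63.5% of all genes tested were so. Hoxa5 was higher by 2.40, Hoxa6 by 2.04 and Hoxa7 by 1.40 (SE 0.16, 0.22 and 0.13), and Hoxa13 was lower, at -2.12 (SE 0.25, limma adjusted p = 1.1e-05). Hoxd8 was at -0.76 and did not pass (adjusted p = 0.23), and Hoxd12 at -0.48 (adjusted p = 0.039) changed sign with median-of-ratios scaling (0.15, adjusted p = 0.56). The split was 8 higher and 1 lower with that scaling, and 4 and 7 without replicate 3 of labelled wildtype, EBSS.

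Shares of a cluster's own TPM are not changed by a single scaling factor per library, though quantile normalization would change them. Hoxa5, Hoxa6 and Hoxa7 together made up 8.76%, 8.20% and 7.497% of HoxA TPM in KO, full medium, against 14.3%, 13.9% and 13.8% in wildtype, full medium. They made up 12.1%, 14.8% and 14.0% in labelled KO, EBSS, against 38.3%, 37.8% and 41.4% in labelled wildtype, EBSS. Hoxa13 made up 1.30%, 0.234% and 1.15% of HoxA TPM in labelled wildtype, EBSS, against 6.28% to 6.78% in wildtype, full medium. For both measures the libraries labelled wildtype, EBSS stood outside the range of all other libraries. How often this held for other genes was not counted. In HoxD, Hoxd8 made up 1.73% to 2.48% in KO, full medium and 10.2% to 10.3% in wildtype, full medium, and Hoxd12 made up 1.59% to 1.90% in KO, full medium and 5.93% to 6.60% in wildtype, full medium. Hoxd13 took up 76.8% to 80.6% of HoxD TPM in KO, full medium, against 58.3% to 60.1% in wildtype, full medium. A share falls when another member rises, so these are descriptions with no test. The genes shown were among those with the largest changes in these same libraries, so their shares are no separate support. Shares of Hoxa9 to Hoxa11, of Hoxd9 and of Hoxd10 with Hoxd11 were computed but are not reported.

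**Figure D4:**
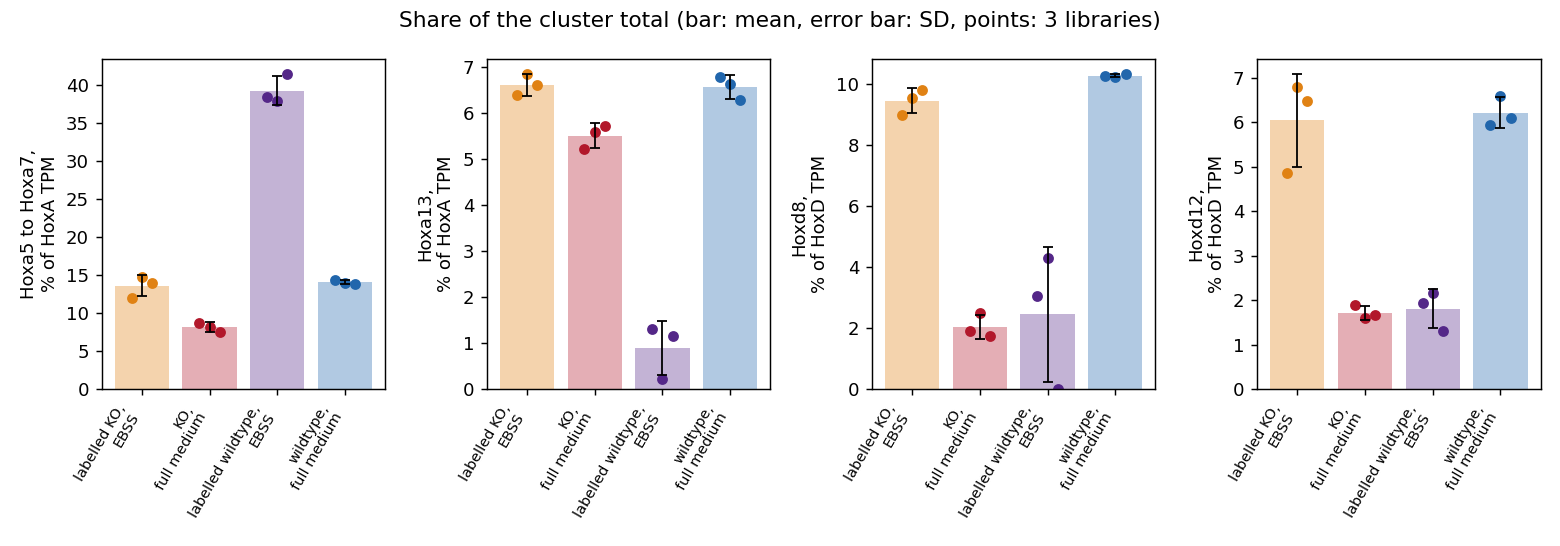
Share of a cluster's TPM, in percent, taken by Hoxa5 to Hoxa7 and by Hoxa13 in HoxA and by Hoxd8 and Hoxd12 in HoxD, with points for 3 libraries, bars for the group mean and error bars for the SD. Hoxa5 to Hoxa7 take 37.8% to 41.4% of HoxA in labelled wildtype, EBSS and 7.497% to 14.8% in the other groups.

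**Figure D5:**
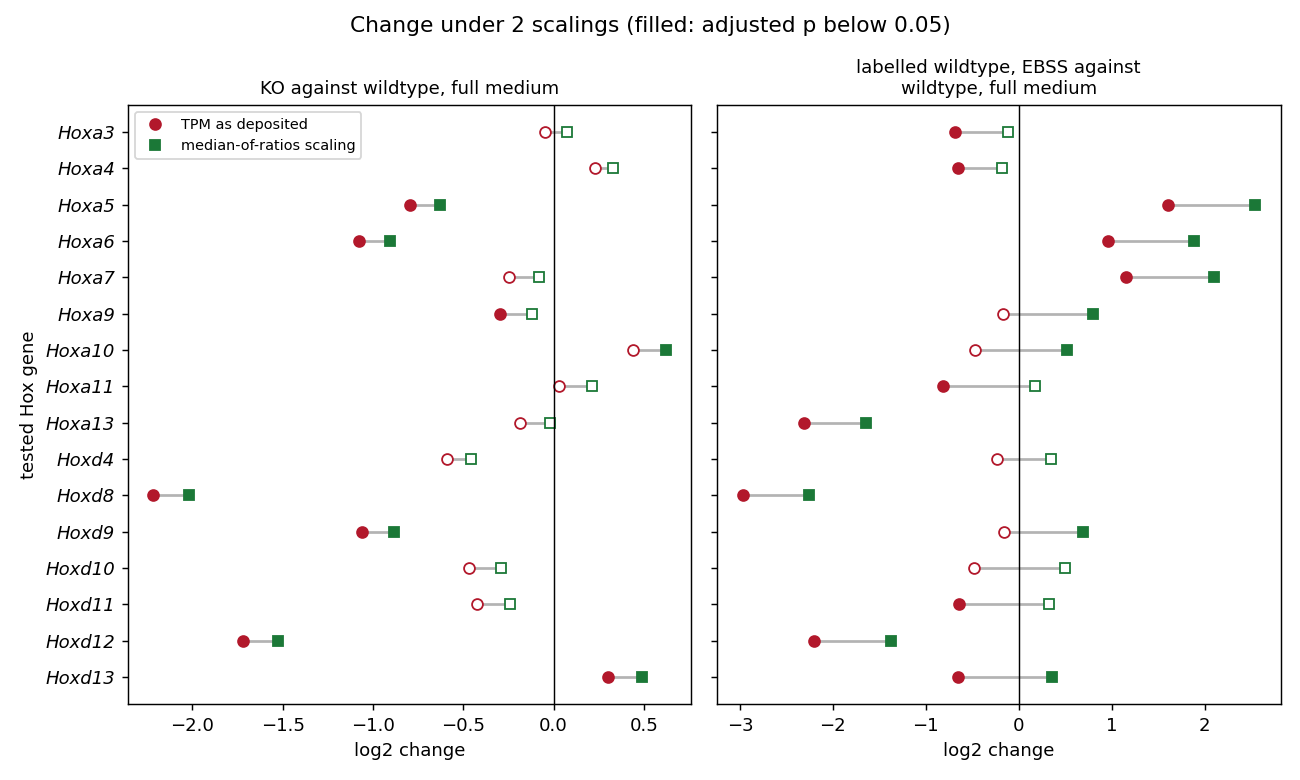
Log2 change of 16 tested Hox genes on TPM as deposited (circles) and after median-of-ratios scaling (squares), for KO against wildtype in full medium (left) and labelled wildtype, EBSS against wildtype, full medium (right); filled symbols have an adjusted p below 0.05. In the right panel the square lies at a higher value than the circle for all 16 genes plotted, and the signs of Hoxa5 to Hoxa7, Hoxa13, Hoxd8 and Hoxd12 are kept.

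Hox proteins bind DNA with TALE homeodomain partners of the PBX, MEIS and PREP (Pknox) families. In KO, full medium against wildtype, full medium, 2 of the 9 were higher and 5 lower, where 20.1% and 35.8% of all genes tested were so, with a median change of -0.48 where that of all genes was -0.17. Pbx4 stood at 21.0, 20.4 and 20.6 TPM in KO, full medium, against 4.79, 3.98 and 3.50 TPM in wildtype, full medium (2.10, limma adjusted p = 4.0e-04). Pknox2 fell by 1.79 and Meis3 by 1.02. In labelled wildtype, EBSS against wildtype, full medium, 1 was higher, Pbx4 at 2.02, and 5 were lower, among them Pknox2 at -3.10, Meis2 at -1.11 and Pknox1 at -1.08. Of all genes tested 9.25% were higher and 71.8% lower there, and the median change was -0.53 over the list and -0.94 over all genes. In labelled KO, EBSS against wildtype, full medium, none of the 9 passed.

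Of 14 MLL1 and MLL2 genes and partners, 3 were higher and 7 lower in KO, full medium against wildtype, full medium, with a median change of -0.39, beside 20.1% higher, 35.8% lower and a median of -0.17 over all genes. Hcfc1, which encodes a cell cycle factor found in MLL1 and MLL2 complexes, fell by 1.25 (limma adjusted p = 9.2e-06), Kmt2a, which encodes MLL1, by 0.91 and Aff4, which encodes a scaffold of the super elongation complex, by 0.70. Dpy30, which encodes a core subunit beside RBBP5, was higher by 1.25 (limma adjusted p = 1.2e-05). In labelled wildtype, EBSS 13 of the 14 were lower, Mllt3, Dot1l, Hcfc1 and Dpy30 most (-1.495, -1.38, -1.07 and -1.03), with a list median of -0.86, beside 71.8% lower and a median of -0.94 over all genes. Of 16 Polycomb genes and H3K27 demethylases, which act on the same clusters, 3 were higher and 3 lower in KO, full medium, with a median change of -0.20, beside 20.1% higher, 35.8% lower and a median of -0.17 over all genes. Cbx7, of a Polycomb complex that compacts chromatin, was higher by 1.10, and Cbx8 and the demethylase gene Kdm6a were both at -0.52. In labelled wildtype, EBSS 3 were higher and 9 lower, with Cbx2 at -2.50, Suz12, of the complex that methylates H3K27, at -1.502, Pcgf2 at 1.35 and the demethylase gene Kdm6b at 1.01. The list median was -0.39, beside 9.25% higher, 71.8% lower and a median of -0.94 over all genes.

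Of 24 noncoding RNAs of the Hox clusters, 22 were in the table and 4 were tested. Hoxa11os, the antisense partner of Hoxa11, stood at 44.2, 42.9 and 45.3 TPM in KO, full medium, against 30.8, 25.6 and 29.0 TPM in wildtype, full medium (0.62, SE 0.10, limma adjusted p = 2.9e-04). Hoxa11 itself did not pass in that comparison. Mira, known in mouse embryonic stem cells as an RNA that recruits MLL1 to Hoxa6 and Hoxa7, stood at 8.86, 8.02 and 7.94 TPM in KO, full medium, against 14.5, 14.5 and 15.3 TPM in wildtype, full medium (-0.77, SE 0.23, limma adjusted p = 0.015). In labelled wildtype, EBSS Mira stood at 38.1, 40.6 and 18.6 TPM (1.01, SE 0.23, limma adjusted p = 0.0017). By group, Mira was lower where Hoxa5 and Hoxa6 were lower and higher where Hoxa5, Hoxa6 and Hoxa7 were higher. Within labelled wildtype, EBSS, replicate 3 had the least Mira but the most Hoxa5 and Hoxa6 (24.8 and 18.6 TPM). A link between these RNAs was not tested. The annotated span of Mira, chromosome 6 from 52214491 to 52215288, lies inside the annotated Hoxa7 gene, so reads of the 2 genes may not be separable. Gm15050, which has no role given here, was at 1.17 in KO, full medium and 1.31 in labelled wildtype, EBSS. Hotairm1 did not pass in either (1.15 and 0.15).

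Overlapping annotation limits other members as well, since the sources used here do not state that counting used strand. By exon bases, 34.98% of Hoxa11 lay opposite Hoxa11os, 20.4% of Hoxa7 opposite Hoxaas3, and 16% of Hoxa4 and 25.4% of Hoxa3 opposite noncoding RNAs. Hoxd4 shared 52.3% with Hoxd3 and Gm28230 together on the same strand, and Hoxd10 and Hoxd11 shared 5.73% and 10.8% with Gm28309. The exons of Hoxa5, Hoxa6, Hoxa10, Hoxa13, Hoxd8, Hoxd9, Hoxd12 and Hoxd13 overlapped no other annotated gene.

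Of 20 tested genes that flank the clusters, 6 were higher and 3 lower in KO, full medium, with a median change of 0.06, beside 20.1% higher, 35.8% lower and a median of -0.17 over all genes. Skap1, an adaptor of T cells, and Calcoco2, a receptor in autophagy, flank HoxB and averaged 3.05 and 1.98 TPM in KO, full medium and 0.254 and 0.0930 TPM in wildtype, full medium. Both were below 1 TPM in all 9 libraries outside KO, full medium, so they met the filter only through the group in which they were high and had to differ. Hnrnpa1, which encodes a splicing factor, and Atp5g2, which encodes a subunit of ATP synthase, flank HoxC and were at -1.06 and -0.84. Whether reads of Hnrnpa1 were shared with pseudogenes was not measured, so its value is uncertain. In labelled wildtype, EBSS none was higher and 15 were lower, with Smug1, Cbx5, Mtx2 and Snx11 at -1.91, -1.70, -1.68 and -1.62 and a list median of -0.89, beside 71.8% lower and a median of -0.94 over all genes.

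Other transcription factor genes that mark position, mostly of the limb and body wall, were lower as well. All 7 of the 17 listed that could be tested were lower in KO, full medium, with a median change of -1.27, beside 35.8% lower and a median of -0.17 over all genes. Tbx5, which marks the forelimb, stood at 4.004, 5.15 and 5.18 TPM in KO, full medium, against 11.5, 13.9 and 13.2 TPM in wildtype, full medium (-1.27, SE 0.16, limma adjusted p = 4.2e-05). Tbx18, of limb and urogenital mesenchyme, was at -1.74, Shox2, of the limb segment nearest the trunk, at -1.34 and En1, of the ventral limb and dermis, at -1.27. The same 7 were lower in labelled wildtype, EBSS, with En1, Tbx18, Tbx5 and Shox2 at -2.43, -2.15, -2.03 and -1.85 and a median of -1.85, beside 71.8% lower and a median of -0.94 over all genes. None of the 7 passed between labelled KO, EBSS and wildtype, full medium. The filter kept 7 of 17, so these are not all genes of the list. Tbx4, one of the 7, was below 1 TPM in every library of KO, full medium and of labelled wildtype, EBSS. It met the filter only through the groups in which it was high, so it had to be lower in these.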

How the data were processed

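Per the labels, polyA RNA from a column kit with a DNase step was made into Illumina TruSeq libraries. The authors deposited TPM values for gene symbols in 12 columns. The submitters' processing notes name Salmon and mm10; version, annotation and strand setting are not stated. Counting intervals need a depth, which TPM does not keep. Columns summed to 92.3% to 99.4% of the full TPM total.

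Sample titles gave the groups. Of 25117 symbols, 4859 were listed at 0 in all libraries. The 12653 that reached 1 TPM in 3 or more libraries were analysed as log2(TPM + 1). Group means were estimated from all 12 libraries by limma 3.58.1 (R 4.3.3) with a variance trend. Contrasts were 6 pairs of groups and the interaction of genotype and medium, two-sided, with Benjamini-Hochberg adjustment. The procedure was also run on simulated data, where few genes changed and each gene had the same spread in all groups. Most comparisons here differ from that setting, so the run does not give their error rates. GENCODE vM21 (GRCm38) gave positions and exon overlaps, and RefSeq the promoters. Figures used Python 3.11.15 and matplotlib 3.10.9.

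The Hox genes and companion lists were chosen with earlier results of these data known. Tested Hox genes are named, with each library's value where a group mean reached 5 TPM, except that some genes counted here and in the companion lists are not reported by name. Up to 4 called genes of largest change are named from each companion list and comparison described. Hotairm1, the marker genes singled out and the Hoxd13 share were added after their values were seen. The plan did not name the genes whose cluster shares are shown. Alternatives were pseudocounts of 0.1 and 0.5, no filter, a mean of at least 5 TPM, median-of-ratios scaling, quantile normalization, ribosomal protein genes left out, the compared libraries alone, the replicate block, and each library left out.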

Additional observations from a re-analysis of the deposited data

Results flagged for a closer look

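For 11 of the 17 tested Hox genes, the difference between the KO and wildtype labels was not the same in EBSS as in full medium, by limma's interaction test with Benjamini-Hochberg adjustment over all genes. Of all genes tested, 64.2% had a higher and 12.5% a lower difference in EBSS, and the median interaction over all genes was 1.06. The difference in EBSS minus that in full medium was 4.97 for Hoxd8, 3.78 for Hoxd12, 2.54 for Hoxa13, 1.30 for Hoxd9, 0.91 for Hoxd10, 0.89 for Hoxa3, 0.89 for Hoxd11, 0.87 for Hoxa11 and 0.55 for Hoxa9. It was -0.86 for Hoxa5 and -0.71 for Hoxa7. Those of Hoxd8, Hoxd12, Hoxa13, Hoxa5 and Hoxa7 kept their side of the threshold under every alternative setting and with each library left out. That of Hoxd10 was lost without any one of 9 libraries (adjusted p = 0.058 to 0.091), of Hoxd9 with median-of-ratios scaling (0.30, adjusted p = 0.20), and the others changed sign or no longer passed with that scaling. All of these directions rest on the EBSS labels, which Rbbp5 goes against. With those labels exchanged, with no test, the values would be -0.54 for Hoxd8, -0.34 for Hoxd12, -2.17 for Hoxa13, 0.82 for Hoxd9, 0.04 for Hoxd10, -0.80 for Hoxa3, -0.04 for Hoxd11, -0.93 for Hoxa11 and 0.04 for Hoxa9, and 2.46 for Hoxa5 and 1.203 for Hoxa7.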

How the results depend on the processing

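Of 1019 values of Hox genes under 9 alternatives, 898 kept their direction and side of the threshold, or passed in neither setting, 54 no longer passed, 24 newly passed and 43 changed direction, 20 of them with median-of-ratios scaling, 22 with quantile normalization and 1 with ribosomal protein genes left out. Of 1428 values with 1 library left out, 1353 were kept, 50 no longer passed, 25 newly passed and none changed direction as called. The cause of each change was not tested. TPM give no depth, so the precision rests on 3 libraries a group, and a low gene listed at 0 in 1 library widens the errors of all groups.

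Counts of higher and lower Hox genes moved by over 1.5 times as follows. For KO against wildtype in full medium (1 higher, 6 lower), 2 were higher with median-of-ratios scaling and 3 with quantile normalization or the compared libraries alone. For labelled KO against labelled wildtype in EBSS (9, 3), 3 were higher with median-of-ratios scaling, 3 with quantile normalization and 5 without ribosomal protein genes, and 7 and 6 were lower with median-of-ratios scaling and quantile normalization. For labelled wildtype, EBSS against wildtype, full medium (3, 8), 7 and 5 were higher with median-of-ratios scaling and quantile normalization, and 3 were lower with each and 5 without ribosomal protein genes. For labelled KO, EBSS against KO, full medium (7, 1), 3 were higher with quantile normalization, and 2 were lower with no filter, both scalings, ribosomal protein genes left out or the compared libraries alone. For the interaction (9, 2), 3 were higher and 6 lower with each scaling, and 5 higher without ribosomal protein genes. For labelled wildtype, EBSS against KO, full medium (4, 7), 8 were higher with each scaling and 1 and 2 lower with median-of-ratios scaling and quantile normalization.

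With 1 library left out, the counts ranged over 0 to 3 higher and 5 to 9 lower for KO against wildtype in full medium, 6 to 12 and 3 to 3 for labelled KO against labelled wildtype in EBSS, and 3 to 3 and 7 to 11 for labelled wildtype, EBSS against wildtype, full medium. They ranged over 6 to 9 and 1 to 2 for labelled KO, EBSS against KO, full medium, 8 to 10 and 2 to 3 for the interaction, 4 to 4 and 6 to 8 for labelled wildtype, EBSS against KO, full medium, and 0 to 0 and 0 to 0 for labelled KO, EBSS against wildtype, full medium. No gene was higher in KO in full medium without any one of wildtype replicates 1, 2 and 3 and KO replicates 2 and 3. Without labelled wildtype, EBSS replicate 3, 3 were. Without replicate 2 or 3 of that group, 2 were lower in labelled KO, EBSS against KO, full medium.

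Little pairing by replicate number was seen: correlations of the deviations of same-numbered libraries were -0.07 to 0.08 over 18 pairs. Between KO, full medium and labelled KO, EBSS the same-numbered library was the best match for every replicate, at 0.03 to 0.05. With 3 libraries a group, these weak correlations cannot show that the libraries were unpaired. With the replicate block, KO against wildtype in full medium had 0 higher and 7 lower Hox genes. The block gave 8 and 3 for labelled KO against labelled wildtype in EBSS, 3 and 9 for labelled wildtype, EBSS against wildtype, full medium, 7 and 1 for labelled KO, EBSS against KO, full medium, 9 and 2 for the interaction and 4 and 7 for labelled wildtype, EBSS against KO, full medium.

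Changes of direction with median-of-ratios scaling were, for labelled KO against labelled wildtype in EBSS, Hoxa9 -0.68, Hoxd9 -0.58, Hoxa10 -0.54, Hoxd11 -0.46, Hoxd13 -0.40 and Hoxa11 -0.040. For labelled wildtype, EBSS against wildtype, full medium they were Hoxa9 0.80, Hoxd9 0.70, Hoxa10 0.52, Hoxd13 0.35, Hoxd11 0.32 and Hoxa11 0.17. For the interaction they were Hoxd13 -0.89, Hoxa9 -0.56, Hoxa11 -0.25, Hoxd11 -0.21 and Hoxd10 -0.21, and for labelled wildtype, EBSS against KO, full medium Hoxd10 0.78, Hoxd11 0.57 and Hoxd12 0.15. With quantile normalization they were, in the same comparisons, first Hoxd9 -0.88, Hoxd4 -0.83, Hoxa9 -0.67, Hoxd11 -0.51, Hoxa4 -0.20, Hoxa3 -0.16 and Hoxd13 -0.0046. In the second they were Hoxd9 1.01, Hoxa9 0.82, Hoxd11 0.37, Hoxa3 0.30, Hoxa4 0.25 and Hoxa11 0.086. In the interaction they were Hoxa9 -0.62, Hoxa3 -0.53, Hoxd11 -0.33, Hoxd9 -0.29, Hoxd10 -0.25 and Hoxa11 -0.12, and in the last Hoxd10 0.74, Hoxd11 0.55 and Hoxd12 0.21. With ribosomal protein genes left out, Hoxa9 was at -0.14 in labelled KO against labelled wildtype in EBSS.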
